A study of Homo sapiens with 12 samples.

Results

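The cyclins and protein kinases that drive mitosis were followed through 10 genes chosen by symbol: CCNA2, CCNB1, CCNB2, CDK1, PLK1, AURKA, AURKB, BUB1, TTK and NEK2. Each symbol was found once among the 25343 genes of the deposited count table, and all 10 passed the filter on low counts that left 14199 genes for testing. The study measured messenger RNA by sequencing in SW48, a colorectal cancer line, and OVK18, an ovarian cancer line, both expressing Cas9. Cells of each line were transduced with the control guide sgCh2-2 or with sgWRN2 or sgWRN3, guides directed at WRN, which encodes a RecQ-family DNA helicase, and RNA was taken after 72 h. Each of the 6 groups (SW48 with sgCh2-2, sgWRN2 or sgWRN3, and OVK18 with the same 3) holds 2 libraries, A and B, from Cas9-positive cells, so the controls carry Cas9 and a guide too. The labels do not say whether A and B came from separate cultures, and the p-values measure only the spread between these libraries, which may be technical. Because whole cultures were sequenced, fewer cells in G2 and mitosis and less of these RNAs per cell cannot be told apart.

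Cyclin A and B proteins bind CDK1 and switch it on as cells pass from G2 into mitosis, and their destruction by the anaphase-promoting complex ends mitosis. PLK1, the Aurora kinases and NEK2 then build and separate the spindle poles and correct chromosome attachment, while BUB1 and TTK hold anaphase until every kinetochore is attached. The RNAs of these genes are low in G1, rise through S phase and G2, and are repressed by the DREAM complex, which is engaged when p53 induces the inhibitor gene CDKN1A.

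Promoter sequence was read for these genes because a shared promoter architecture is textbook knowledge for them: DREAM and MuvB complexes bind a cell cycle genes homology region (CHR), and NF-Y binds CCAAT boxes. The RefSeq promoter table (build GRCh38.p14, 250 bases before to 50 bases after a gene's start) has entries for 8 of the 10 genes, with no entry for AURKA and TTK. Shown are the 120 bases before the start of 4 genes with a single entry, 5′ to 3′ on the coding strand, with CCAAT or its reverse complement ATTGG and the CHR letters TTTGAA in capitals.
CCNA2: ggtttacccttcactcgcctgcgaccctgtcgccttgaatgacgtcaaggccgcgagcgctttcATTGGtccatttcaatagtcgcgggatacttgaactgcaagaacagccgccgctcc
CCNB1: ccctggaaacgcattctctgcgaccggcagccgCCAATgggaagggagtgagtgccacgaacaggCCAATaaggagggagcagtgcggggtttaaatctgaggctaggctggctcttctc
CCNB2: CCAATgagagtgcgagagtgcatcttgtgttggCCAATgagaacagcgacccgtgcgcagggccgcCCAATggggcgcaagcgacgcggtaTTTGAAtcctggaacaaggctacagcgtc
PLK1: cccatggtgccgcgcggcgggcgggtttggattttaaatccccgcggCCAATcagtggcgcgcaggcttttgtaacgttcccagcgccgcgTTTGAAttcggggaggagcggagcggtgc
These stretches lie at chr4:121823884-121824003 (minus strand), chr5:69167030-69167149, chr15:59105026-59105145 and chr16:23678769-23678888 (plus strand). A CCAAT box on either strand was found in the 300-base window of 8 of 8 genes, against 34.6% of all 35116 promoters in the table. TTTGAA or TTCGAA was found in 4 of the 8 (CCNB2, CDK1, PLK1 and, after the start, BUB1), against 16.4% of all promoters. Only these letters were searched for the CHR, so their absence from a window does not show that the gene lacks a CHR. The E2F letters TTTGGCGC or TTTCGCGC were found in CDK1 alone, against 1.15% of all promoters. All motifs were searched on both strands, and hits of different motifs did not overlap. In CCNB2 and in PLK1 the TTTGAA begins 29 bases before the start. These matches describe letters in a window and are not evidence of binding.

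Library totals ran from 15423162 to 32581625 counts. The lowest count of any of the 10 genes in any library was 271 (AURKB), where counting error is about 6.07%. WRN itself was 101 CPM (the read count relative to the TMM-scaled library total) in SW48 with sgCh2-2, 35.6 with sgWRN2 and 49.6 with sgWRN3, and fell with the 2 guides averaged (log2 fold change -1.27, adjusted p = 0.00409). In OVK18 it was 35.9, 21.5 and 22.6 CPM (log2 fold change -0.71, adjusted p = 0.206). Of 4 intestinal markers, the transcription factors CDX2 and HNF4A were at 87.4 and 63.7 CPM in SW48 controls and near 0 in OVK18, whereas VIL1 was at 1.82 and KRT20 at 0.0911 CPM in SW48. The 5 Mullerian and ovarian markers did not set OVK18 apart: PAX8, WT1, MSLN, HOXA10 and HOXA11 were at 0, 0.911, 0.0659, 34.5 and 39.6 CPM in OVK18 controls and at 4.31, 0, 37.5, 58.9 and 15.8 CPM in SW48 controls. Of 5 fibroblast markers, the collagen COL3A1 was at 436 CPM in OVK18 controls and PDGFRA at 22.4 CPM. COL1A1 was at 1.11, PDGFRB at 0.33 and THY1 at 0 CPM in the same controls. Of 5 leukocyte and endothelial markers, CD3E and PECAM1 had 0 counts in all 12 libraries and VWF 18, while PTPRC was at 3.23 CPM in SW48 and CD68 at 7.38 CPM in SW48 and 5.30 in OVK18.

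In control cells the cyclins of the B type and CDK1 were the most abundant per transcript length. In SW48 with sgCh2-2 the length-scaled level (FPKM) was 70.4 ± 0.28 for CCNB1 (SD, n = 2, as for the other levels here) and 67.0 ± 12 for CDK1, then 42.2 ± 3.0 for CCNB2, 35.8 ± 6.4 for CCNA2 and 34.2 ± 1.8 for BUB1. AURKA followed at 30.6, TTK at 29.6, PLK1 at 27.2, AURKB at 22.1 and NEK2 at 20.3 FPKM. The libraries of neighbours in this order overlapped except between CDK1 and CCNB2, between BUB1 and AURKA, and between PLK1 and AURKB. In OVK18 with sgCh2-2, CDK1 led at 52.0 ± 0.75 FPKM, before CCNB1 at 44.3 ± 2.0, CCNB2 at 27.3, AURKA at 26.2, BUB1 at 21.1, CCNA2 at 19.3, TTK at 17.8, NEK2 at 17.5, PLK1 at 14.0 and AURKB at 13.2. Of these neighbours only CCNB2 and AURKA, and PLK1 and AURKB, overlapped between libraries.

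All 10 genes had a higher level in control SW48 than in control OVK18, and 7 of the 10 passed the test, where 33.9% of all genes were called higher in SW48. The log2 difference was largest for PLK1 (0.87, SE 0.13, adjusted p = 5.02e-05) and CCNA2 (0.86, SE 0.18, adjusted p = 0.000835). It was 0.75 for AURKB, 0.68 for TTK, 0.67 for BUB1, 0.61 for CCNB1 and 0.57 for CCNB2. CDK1 (0.32, adjusted p = 0.127), AURKA (0.21, adjusted p = 0.0649) and NEK2 (0.20, adjusted p = 0.247) did not pass.

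**Figure D1:**
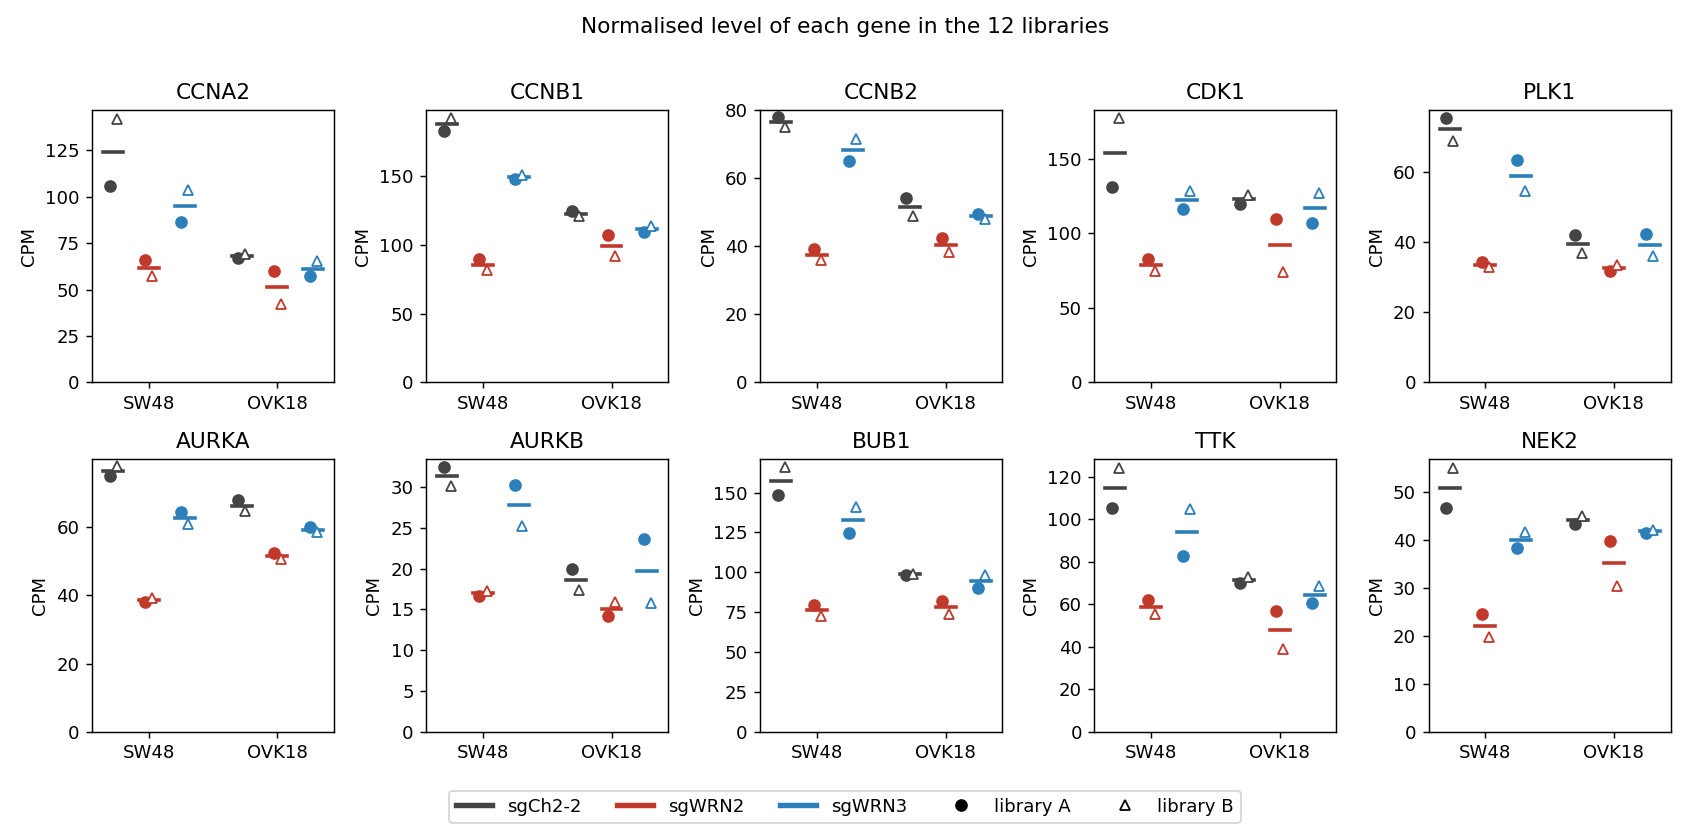
Normalised level (CPM, linear axis from 0) of each of the 10 genes in the 12 libraries; circles are library A, triangles library B and bars the mean of 2, coloured by guide. With sgWRN2 in SW48 every gene sits at 43.5 to 54.2% of its control mean, below both control libraries.

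For the 3 cyclins the mean level in SW48 was below control with each guide against WRN, and the tests of these differences are given further on. CCNB1, the main partner of CDK1 at mitotic entry, stood at 183 and 193 CPM in control libraries A and B in SW48, at 89.7 and 81.6 under sgWRN2 and at 148 and 151 under sgWRN3. In OVK18 its levels were 125 and 121, 107 and 92.0, and 109 and 114 CPM in the same order. In both lines all 4 WRN-guide libraries lay below both controls for CCNB1, and in SW48 the sgWRN2 libraries lay furthest down. CCNB2, a B-type cyclin found at the Golgi, was at 78.0 and 75.1, 39.1 and 36.0, and 64.9 and 71.5 CPM in SW48, and at 54.3 and 48.8, 42.4 and 38.4, and 49.6 and 48.1 CPM in OVK18. The OVK18 libraries of CCNB2 with sgWRN3 overlapped the controls, while those with sgWRN2 did not. CCNA2, the cyclin of S phase and G2, was at 106 and 142, 65.7 and 57.5, and 86.1 and 104 CPM in SW48, and at 66.8 and 69.1, 60.1 and 42.5, and 57.2 and 65.3 CPM in OVK18. All WRN-guide libraries lay below the controls for CCNA2 in both lines, but its A and B libraries stood far apart in SW48 controls and in OVK18 with sgWRN2.

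The kinases of mitotic entry and of the spindle followed the same order of guides in SW48. In the same order, CDK1 was at 131 and 178, 82.8 and 74.9, and 116 and 129 CPM in SW48, and at 120 and 126, 110 and 73.9, and 107 and 127 CPM in OVK18. The SW48 groups of CDK1 did not overlap with the controls, and the sgWRN3 libraries of OVK18 spanned them. PLK1, which helps to activate CDK1 and to mature centrosomes, was at 75.7 and 68.9, 34.4 and 32.9, and 63.5 and 54.6 CPM in SW48, and at 42.2 and 37.0, 31.9 and 33.6, and 42.3 and 36.0 CPM in OVK18. In OVK18 the PLK1 libraries with sgWRN3 covered the range of the controls. AURKA, the Aurora kinase of spindle poles, was at 75.1 and 78.0, 38.1 and 39.2, and 64.5 and 61.0 CPM in SW48, and at 67.8 and 64.8, 52.5 and 50.6, and 59.9 and 58.7 CPM in OVK18. Its A and B libraries lay close together in every group, and the WRN-guide libraries were below the controls in both lines. AURKB, the kinase of the chromosomal passenger complex, had the lowest level per length in OVK18 controls and the fewest counts of the 10: 32.5 and 30.1, 16.6 and 17.3, and 30.2 and 25.3 CPM in SW48, and 19.9 and 17.3, 14.2 and 15.8, and 23.7 and 15.8 CPM in OVK18. For AURKB the sgWRN3 libraries overlapped the controls in both lines.

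The checkpoint kinases and NEK2 completed the set. BUB1, a kinetochore kinase that recruits shugoshin and checkpoint proteins, was at 149 and 166, 79.5 and 72.7, and 124 and 141 CPM in SW48, and at 98.2 and 99.3, 82.2 and 73.9, and 90.5 and 98.2 CPM in OVK18. TTK (also called MPS1), the kinase that starts checkpoint signalling, was at 105 and 124, 62.3 and 55.4, and 82.8 and 105 CPM in SW48, and at 70.1 and 72.8, 56.9 and 39.1, and 60.5 and 68.5 CPM in OVK18. For BUB1 and TTK all 4 WRN-guide libraries lay below both controls in each line, in places by a narrow margin. NEK2, a centrosome kinase that separates the spindle poles, was at 46.6 and 55.1, 24.4 and 19.8, and 38.3 and 41.6 CPM in SW48, and at 43.4 and 45.0, 39.7 and 30.5, and 41.5 and 42.1 CPM in OVK18. Its WRN-guide libraries also lay below the controls in both lines. Counted over the set, all 4 WRN-guide libraries lay below both controls for 9 of 10 genes in SW48, where 5.33% of all genes did so, and for 6 of 10 in OVK18, where 3.84% did.

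With the 2 guides averaged in SW48, 6 of the 10 genes fell, where 0.613% of all genes tested were called lower. The log2 fold change of CCNB1 was -0.73 (SE 0.084, adjusted p = 0.00507), and that of NEK2 -0.77 (SE 0.13, adjusted p = 0.0167), PLK1 -0.70 (SE 0.11, adjusted p = 0.0129), BUB1 -0.65 (SE 0.090, adjusted p = 0.00776), AURKA -0.64 (SE 0.080, adjusted p = 0.00507) and CCNB2 -0.60 (SE 0.092, adjusted p = 0.0133). The other 4 had similar log2 fold changes and did not pass: CCNA2 -0.69 (adjusted p = 0.0575), CDK1 -0.65 (adjusted p = 0.092), TTK -0.62 (adjusted p = 0.0812) and AURKB -0.53 (adjusted p = 0.198). The median over the 10 was -0.65, against 0.004 over all genes tested, and the SD of the 10 log2 fold changes was 0.069, below their median standard error of 0.12. The 10 genes share the same libraries and their errors are not independent, so this SD cannot show that they have a common effect. The count rested on single libraries: it was 0 without SW48 sgCh2-2 library B, 1 without SW48 sgCh2-2 library A and 3 without SW48 sgWRN2 library B. Without the 4 sgWRN2 libraries the contrast holds sgWRN3 alone, and the count was 0, as for sgWRN3 in the main fit. The whole table lost calls in the same fits: of all genes tested, in either direction, 123 were called with every library, and 0, 4, 37 and 0 in these 4 fits.

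The 2 guides differed in SW48. With sgWRN2 alone all 10 genes fell, where 1.95% of all genes did, with log2 fold changes from -1.20 (NEK2, SE 0.15, adjusted p = 0.00121) to -0.89 (AURKB, SE 0.18, adjusted p = 0.0211). The levels were 43.5% of control for NEK2, 45.6% for CCNB1, 46.5% for PLK1, 48.3% for BUB1, 49.0% for CCNB2, 49.8% for CCNA2, 50.5% for AURKA, 51.1% for CDK1, 51.3% for TTK and 54.2% for AURKB. This count was 6 when SW48 sgCh2-2 library B, SW48 sgWRN2 library A or SW48 sgWRN2 library B was left out, where calls over all genes went from 437 to 195, 167 and 148. With a replicate block, which fits the A and B letters as a term in each line, the count was 8 of 10 (265 genes in all). With sgWRN3 alone the levels were 76.6% (CCNA2) to 89.2% (CCNB2) of control, and no gene of the 10 passed edgeR's test, where 0% of all genes did. The log2 fold changes with sgWRN3 were all negative, from -0.38 (CCNA2) to -0.17 (CCNB2), 5 of 10 had an unadjusted p under 0.05 (1.85% of all genes), and DESeq2 and limma-voom called 0. When the 4 sgWRN2 libraries were left out and a replicate block was fitted, 8 of 10 were called for sgWRN3, as were 151 of 14209 genes in all; without the block none was. Tested directly, sgWRN2 against sgWRN3 gave lower levels for 6 genes (CCNB1, CCNB2, PLK1, AURKA, BUB1 and NEK2), where 0.655% of all genes were called lower, with log2 differences over the 10 from -0.86 (CCNB2) to -0.62 (CCNA2). None of the 10 was called in this contrast without SW48 sgWRN2 library A, without SW48 sgWRN2 library B or without SW48 sgWRN3 library B, where calls over all genes went from 134 to 3, 17 and 8.

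In OVK18 the genes lay closer to control. With the 2 guides averaged, all 10 log2 fold changes were negative, from -0.36 (TTK) to -0.11 (AURKB) with a median of -0.22, and none passed edgeR's test, where 0.00704% of all genes were called lower. Of the 10, 5 had an unadjusted p under 0.05 (4.04% of all genes), and DESeq2 and limma-voom called 0. With sgWRN2 the levels were 67.1% (TTK) to 82.8% (PLK1) of control and none passed, where 0.261% of all genes were called lower; 8 had an unadjusted p under 0.05 (13.9% of all genes). The smallest adjusted p was 0.109 (AURKA, log2 fold change -0.36). DESeq2 called 1 of the 10 (3.67% of the genes it gave an adjusted p) and limma-voom 0. With sgWRN3 the levels were 89.4% (AURKA) to 106% (AURKB) of control, and none passed, where 0% of all genes were called; none had an unadjusted p under 0.05 (0.817% of all genes), and DESeq2 and limma-voom called 0. Set against each other in OVK18, sgWRN2 was below sgWRN3 for all 10 genes with log2 differences of -0.16 (CCNB1) to -0.42 (TTK), none of which passed, where 0.31% of all genes were called lower. In that contrast 3 had an unadjusted p under 0.05 (14.5% of all genes), and DESeq2 and limma-voom called 0.

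The difference between the lines was tested as an interaction. As point estimates, all 10 genes lay further below control in SW48 than in OVK18, with differences in log2 fold change from -0.57 (NEK2) to -0.26 (TTK). None passed edgeR's test, where 0.0141% of all genes were called lower. CCNB1 came nearest (-0.51, SE 0.12, unadjusted p = 0.00125, adjusted p = 0.897), 6 of the 10 had an unadjusted p under 0.05 (2.75% of all genes), and DESeq2 and limma-voom called 0.

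**Figure D2:**
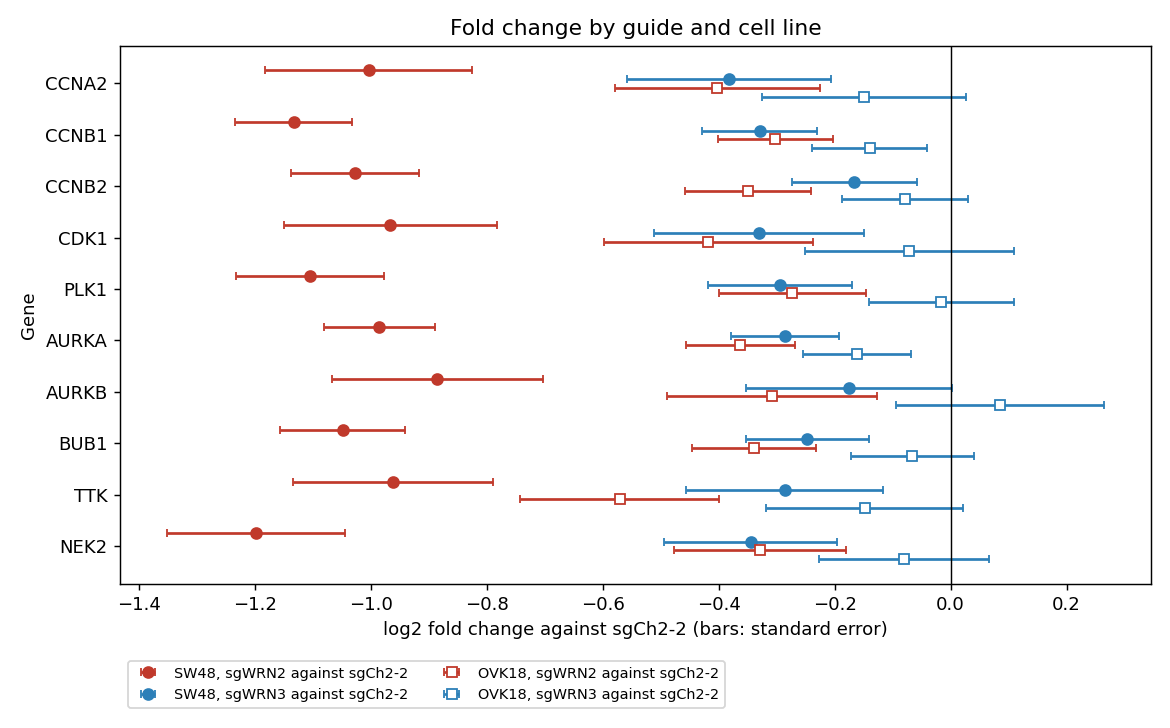
Log2 fold change against sgCh2-2 (horizontal axis) with its standard error for each gene (vertical axis), by line (circles SW48, squares OVK18) and guide (red sgWRN2, blue sgWRN3). The sgWRN2 values of SW48, -1.20 to -0.89, stand apart from the other 3 series, which lie between -0.57 and 0.09.

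Within a group, libraries A and B differed in a way that followed the GC content of the transcripts. The 10 genes span 35.6% GC (CDK1) to 56.1% (AURKB), with TTK at 39.7%, CCNA2 at 42.1% and PLK1 at 53.4%. In SW48 with sgCh2-2 library B exceeded A by 0.44 on the log2 scale for CDK1 and 0.42 for CCNA2, while the value was -0.13 for PLK1 and -0.11 for AURKB. With sgWRN2 the order was turned: in OVK18 the B minus A difference was -0.57 for CDK1 and -0.50 for CCNA2 but 0.08 for PLK1 and 0.15 for AURKB. Across the 12411 tested genes with a known GC content (87.4%), the correlation of this difference with GC was -0.52, 0.37 and -0.45 in SW48 and -0.36, 0.60 and -0.47 in OVK18 for sgCh2-2, sgWRN2 and sgWRN3. Genes are not independent replicates, and these values are descriptions. The genes that missed the threshold in SW48 with the 2 guides averaged were the 3 with the lowest GC content and the 1 with the highest. The fold changes themselves had little relation to GC across all genes (r = 0.03 in SW48 and 0.07 in OVK18 with the 2 guides averaged). Over the 10 genes alone r was 0.30 in SW48 and 0.77 in OVK18 with the 2 guides averaged, 0.05 and 0.65 with sgWRN2, and 0.52 and 0.68 with sgWRN3.

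**Figure D3:**
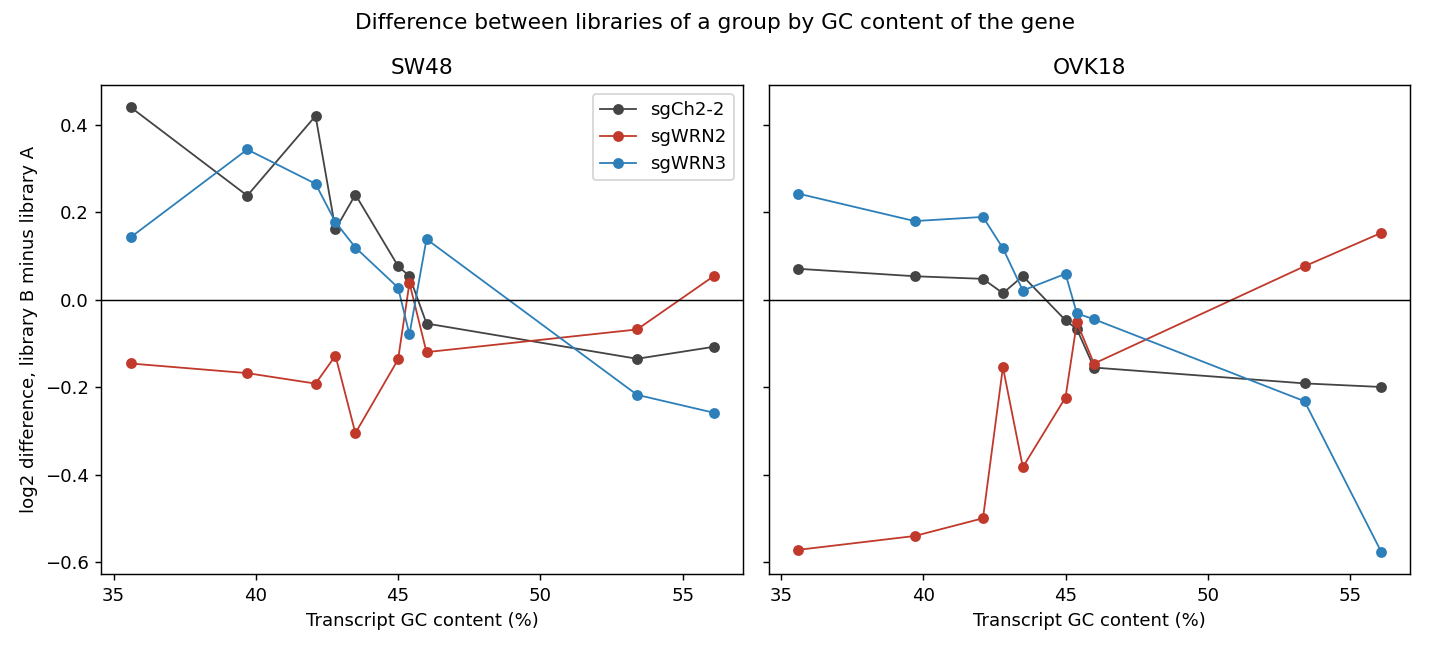
Difference between library B and library A of a group (log2, vertical axis) against transcript GC content in percent (horizontal axis) for the 10 genes, by line (panels) and guide (colours); lines join the genes in order of GC. The sgCh2-2 and sgWRN3 series run down and the sgWRN2 series run up from CDK1 at 35.6% to AURKB at 56.1%.

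When each library's trend with GC was removed before the fit, an alternative chosen after seeing the data, more genes passed. Most log2 fold changes stayed close to those above, but those of CDK1, the gene with the lowest GC content, moved by over 1.5 times in 5 comparisons: from -0.42 to -0.24 with sgWRN2 in OVK18, from -0.33 to -0.19 with sgWRN3 in SW48, from -0.24 to -0.15 with the 2 guides averaged in OVK18, from -0.35 to -0.19 for sgWRN2 against sgWRN3 in OVK18, and from 0.32 to 0.58 between the control libraries. NEK2 moved from 0.20 to 0.34 between the control libraries, and PLK1 from -0.02 to -0.03 with sgWRN3 in OVK18. In SW48 with the 2 guides averaged all 10 genes then fell (3.27% of all genes called lower), with log2 fold changes of -0.75 (NEK2) to -0.53 (AURKB) and adjusted p from 1.75e-06 to 0.00395. For sgWRN2 in SW48 all 10 fell (6.44% of all genes), and for sgWRN2 against sgWRN3 in SW48 all 10 were lower (3.47% of all genes). For sgWRN3 in SW48 none passed (0.00806% of all genes; smallest adjusted p = 0.131, CCNB1). In OVK18 with sgWRN2, 9 of 10 fell, all but AURKB, where 6.58% of all genes were called lower. Their log2 fold changes ran from -0.49 (TTK, adjusted p = 0.000907) to -0.24 (CDK1, adjusted p = 0.0267). With the 2 guides averaged in OVK18, TTK alone passed (-0.31, adjusted p = 0.0462; 0.177% of all genes), and with sgWRN3 none did (0.00806% of all genes). In OVK18 sgWRN2 was lower than sgWRN3 for 5 genes (CCNB2, PLK1, AURKB, BUB1 and TTK), where 6.88% of all genes were called lower. The difference between lines passed for CCNB1 (-0.52, adjusted p = 0.00722), BUB1 (-0.45, adjusted p = 0.0119), PLK1 (-0.54, adjusted p = 0.0315) and NEK2 (-0.57, adjusted p = 0.0315), where 0.185% of all genes were called lower. Between the control libraries all 10 were then higher in SW48, where 38.9% of all genes were.

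Of 31 partners of these kinases in 3 lists, 10 fell in SW48 with the 2 guides averaged, where 0.613% of all genes tested did. The lists of G1 genes and of other family relatives held no gene that fell. Each held 1 gene that rose, where 36 of 14199 genes tested rose. Of 11 genes that control CDK1 at mitotic entry, 3 fell in SW48 with the 2 guides averaged, and the median log2 fold change was -0.44. They were CDC25C, the phosphatase that activates CDK1 (-0.64, adjusted p = 0.0323), BORA, which helps Aurora A to activate PLK1 (-0.55, adjusted p = 0.0467), and CKS2, a small CDK-binding subunit (-0.44, adjusted p = 0.0365). CDKN3, a phosphatase that acts on CDKs, had -0.50 (adjusted p = 0.0526). Of 9 Aurora partners and other mitotic kinases 3 fell, with a median of -0.44: CDCA8 (-0.72, adjusted p = 0.00507) and BIRC5 (-0.62, adjusted p = 0.00609), both of the chromosomal passenger complex, and TPX2 (-0.48, adjusted p = 0.0329), the activator of Aurora A. MELK had -0.44 (adjusted p = 0.0693).

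Of 11 genes of the spindle checkpoint and the anaphase-promoting complex 4 fell in SW48, with a median of -0.47. They were CDC20, the activator of the complex (-0.70, adjusted p = 0.0167), PTTG1, which encodes securin (-0.56, adjusted p = 0.0203), BUB1B, a checkpoint protein (-0.53, adjusted p = 0.0245), and UBE2C, a ubiquitin-conjugating enzyme of the complex (-0.64, adjusted p = 0.0398). PTTG1 has near-identical relatives whose reads the counting could have split, and AURKA has processed pseudogenes, so both are less certain. Of 8 cyclins and kinases of G1 and G1/S, CCND1 rose (0.42, adjusted p = 0.0355) and none fell, with a median of -0.12. CDK2 (-0.41, adjusted p = 0.0588), CCNE2 (-0.60, adjusted p = 0.195) and CCNE1 (-0.19, adjusted p = 0.756) did not pass. Among 14 other family relatives of the 10 genes, 11 were tested and PLK2, a Polo-like kinase induced by p53, rose (0.64, adjusted p = 0.00516). This list is not free of mitotic genes: it includes NEK6, NEK7 and NEK9, kinases with roles in mitosis. PLK3 (0.69, adjusted p = 0.205) and NEK8 (0.53, adjusted p = 0.646) did not pass, and the median of the tested relatives was 0.08.

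In OVK18 with the 2 guides averaged no gene of these 5 lists passed edgeR's test, where 0.0282% of all genes did. The medians were -0.21 for CDK1 entry, -0.21 for Aurora partners, -0.13 for the checkpoint list, -0.01 for the G1 list and 0.07 for the relatives. At an unadjusted p under 0.05 the counts in these lists were 1 of 11, 3 of 9, 1 of 11, 1 of 8 and 2 of 11, against 4.04% of all genes. PLK2 had 0.60 (adjusted p = 0.0895). With GC trends removed, 7 of 11 CDK1 entry genes and 7 of 11 checkpoint genes fell in SW48, where 3.27% of all genes did. So did 8 of 8 Aurora partners with a GC value. None of these 3 lists had a call in OVK18. In the G1 list 2 of 8 fell and 1 rose in SW48 under that alternative. Of the 11 relatives, 2 rose in SW48 and 1 in OVK18. Over all genes, in either direction, 5.99% were called in SW48 and 0.612% in OVK18.

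**Figure D4:**
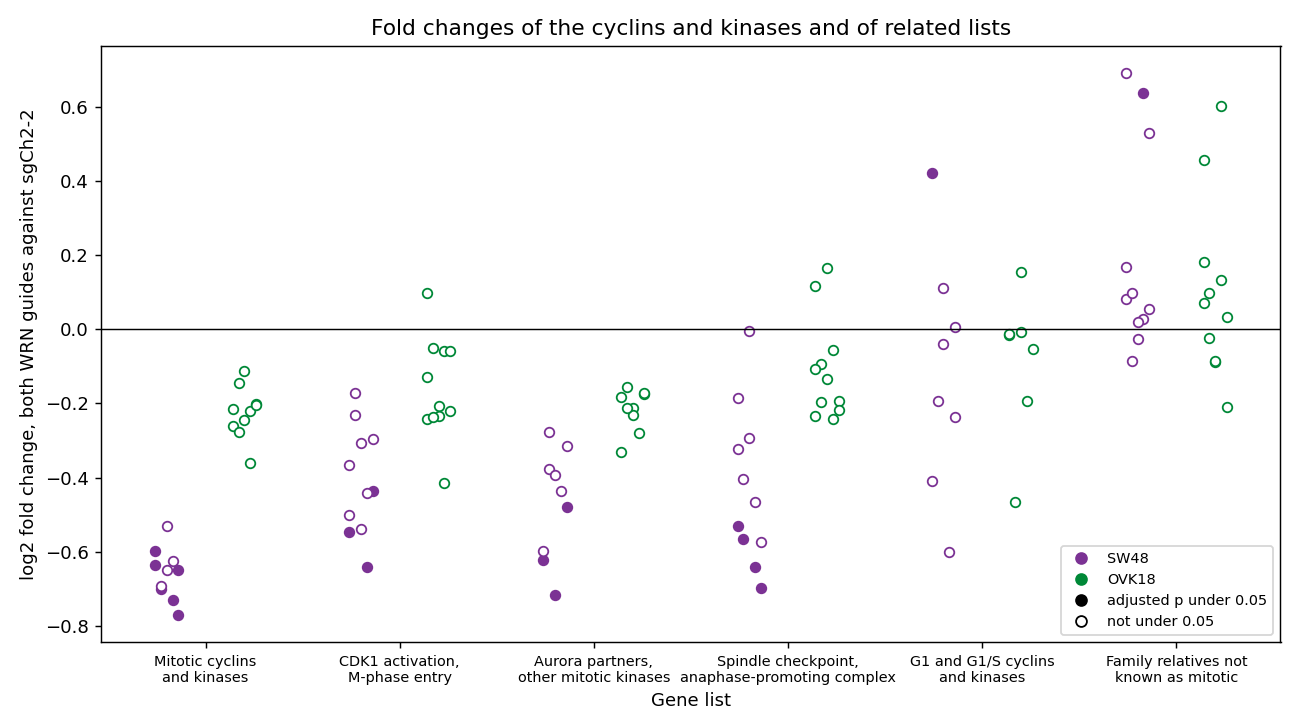
Log2 fold change of the 2 WRN guides averaged against sgCh2-2 (vertical axis) for each tested gene of the 10 cyclins and kinases and of 5 related lists (horizontal axis), SW48 in purple and OVK18 in green; filled points passed the adjusted threshold of 0.05. CCND2 in OVK18 is left out because its counts there are near 0. The cyclins and kinases of SW48 lie between -0.77 and -0.53, and the tested relatives of SW48 between -0.09 and 0.69. The list of relatives, labelled as not known as mitotic, includes NEK6, NEK7 and NEK9, which have roles in mitosis.

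CDKN1A, the p53 target that encodes the CDK inhibitor p21, had the opposite order of groups in SW48. Its libraries stood at 412 and 326 CPM in controls, at 945 and 1008 under sgWRN2 and at 655 and 519 under sgWRN3. With the 2 guides averaged CDKN1A rose (log2 fold change 1.04, adjusted p = 0.00507). It passed with sgWRN2 alone (1.40) but not with sgWRN3 alone (0.67). In OVK18 it was at 179 and 173, 253 and 295, and 187 and 172 CPM, and did not pass (0.33, adjusted p = 1). By guide in OVK18, CDKN1A had 0.64 with sgWRN2 and 0.03 with sgWRN3, and neither passed. For sgWRN2 its unadjusted p in edgeR's test was under 0.05, as for 13.9% of all genes. Its part in the levels of the 10 genes was not tested.

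After removal of each line's mean, the 10 genes moved closely together over the 12 libraries. The differences between guides were not removed, so those reported above are part of these correlations. Pearson's r between pairs, as a description over libraries that share depth and GC trends, ran from 0.66 (AURKB with CDK1, the extremes of GC content) to 0.99 (CCNA2 with CDK1). The 6 other genes most like the mean of the 10, among 10986 ranked, were BIRC5 (r = 0.994), UBR7 (0.991), TYMS (0.989), BUB1B (0.988), PRR11 (0.988) and WDR76 (0.987). TYMS encodes thymidylate synthase and UBR7 a protein of the UBR-box family. Their log2 fold changes in SW48 with the 2 guides averaged ran from -0.64 (WDR76) to -0.35 (TYMS).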

How the data were processed

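Raw counts per gene were deposited by the authors; per the submitters' processing notes, bcl2fastq 2.18, STAR 2.5 and genome build hg19 were used. A second table that the authors deposited is read as FPKM from its values and because the submitters' processing notes list Cufflinks 2.2.1; no header gives the unit. It was used only for levels per length and 1 alternative. Annotation and strand settings are not given in the sources used here, so reads of overlapping genes cannot be told apart. The 92 spike-in rows hold 0 counts and were left out. Transcript GC content came from GENCODE transcripts matched by symbol, and promoter sequences from RefSeq; as that build differs from hg19, the promoter windows carry GRCh38 coordinates from the RefSeq table, and no coordinates are given for the counted genes.

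The tests used edgeR 4.0.16 under R 4.3.3, with TMM scaling, filterByExpr, 1 coefficient for each of 6 groups, a robust quasi-likelihood test (residual degrees of freedom 6) and p-values adjusted by Benjamini-Hochberg over all 14199 genes with a threshold of 0.05. Standard errors are the log2 fold change over the square root of F. CPM use TMM-scaled totals. The GC alternative entered each library's lowess trend of log2 CPM on GC as an offset. All 10 genes were tested in every comparison, but for some only counts, ranges and a few genes, mostly those at the ends, are printed. Also named are up to 4 genes with the smallest p in SW48 per pathway list (3 for relatives), the 6 most correlated genes, WRN and CDKN1A. The genes and lists were chosen with earlier results of these data known, so their counts and medians are descriptions.

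Alternatives were other scalings, other filters, DESeq2 1.42.0, voom and FPKM fits in limma 3.58.1 (pseudocount 1), a non-robust fit, 1 line alone, a replicate block, and leaving out libraries; GC offsets and a crossed block were chosen after seeing the data. On simulated counts for both guides in SW48 (13832 genes, 200 changed), 53% of 1.5-fold and 91% of 2-fold changes were called and 6.49% of calls were false. With simulated GC trends and GC offsets (12170 genes), these were 90%, 99% and 4.55%. The simulated trends and spread were those that the GC fit itself had estimated, so these figures cannot show its error rate on the real libraries. The simulation without GC offsets used the main fit's own spread and held no GC trends. It cannot show the main fit's error rate on the real libraries either.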

Additional observations from a re-analysis of the deposited data

How the results depend on the processing

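Counts of the 10 genes called moved as follows, beside calls over all genes where given. In fits without the 4 sgWRN2 libraries, the contrast of both guides holds sgWRN3 alone. For both guides in SW48 (6; 123 genes in all), no filter gave 10 (292), a replicate block 3 (28), a crossed block 10 (217), GC offsets 10 (743), GC offsets with a replicate block 10 (901), the fit without the 4 sgWRN2 libraries and without a block 0, with or without GC offsets, and leaving out 1 library 0 to 9. For sgWRN2 in SW48 (10), leaving out 1 library gave 6 to 10, a replicate block 8 and FPKM 9. For sgWRN3 in SW48 (0), the fit without sgWRN2 libraries and with a replicate block gave 8 (151). For sgWRN2 against sgWRN3 in SW48 (6), no filter, DESeq2 and GC offsets with and without a block each gave 10, and leaving out 1 library 0 to 7. For sgWRN2 in OVK18 (0), no filter and DESeq2 gave 1, GC offsets 9 (1746), GC offsets with a replicate block 10 (2110), and leaving out 1 library 0 to 1. GC offsets, with and without a replicate block, gave 1 for both guides in OVK18, 4 for the difference between lines and 5 for sgWRN2 against sgWRN3 in OVK18 (0 each otherwise). Calls over all genes moved too. For sgWRN2 against sgWRN3 in SW48 they went from 134 to 334 (no filter), 298 (DESeq2), 725 (GC offsets) and 835 (block added). For sgWRN2 in SW48, 437 became 630 on FPKM. For sgWRN2 in OVK18, 113 became 439 (no filter) and 430 (DESeq2). GC offsets moved 106 to 1891 for sgWRN2 against sgWRN3 in OVK18. They moved 4 to 76 for both guides in OVK18 and 4 to 40 for the difference between lines. The cause of these moves was not tested.

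Direction held in SW48 for each of the 10 genes in every alternative run. Without the 4 sgWRN2 libraries the contrast of both guides holds sgWRN3 alone. In OVK18 AURKB was then positive (0.085, 0.066 with a replicate block and 0.0559 with GC offsets), as it was with sgWRN3 in the main fit (0.085). With both guides in OVK18, leaving out 1 library gave -0.263 to 0.0192 for AURKB. With sgWRN3 in OVK18, where no gene was called, leaving out 1 library gave -0.219 to 0.0387 for CDK1, -0.142 to 0.0752 for PLK1 and -0.237 to 0.327 for AURKB. On FPKM, PLK1 was at 0.0019 and AURKB at -0.0030 there.

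The labels do not say what the letters A and B share. The A to B differences correlated over 14199 genes at 0.33 to 0.41 in the 6 pairs among the sgCh2-2 and sgWRN3 groups of both lines and at 0.35 between the sgWRN2 groups of the lines, but at -0.09 and 0.01 between sgWRN2 and these groups in SW48 and at -0.10 and -0.23 in OVK18. With the crossed pairing (sgWRN2 letters of OVK18 swapped) the count for both guides in OVK18 was 0. With 2 libraries a group, a replicate that stands apart cannot be tested for.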
